A study of Rattus norvegicus with 8 samples.

Results

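The hypoxia-inducible factors and a set of their known target genes were followed in the medial thalamus of rats whose breathing had been briefly and repeatedly obstructed. The set held 40 genes, chosen by name from knowledge of the pathway, and 39 of them had at least 1 probe on the array, out of 35561 gene names. Of these, 37 were found under the gene name given by the array, and 2 through the accession of the probe in RefSeq: Kdm3a (listed as Jmjd1a) and Higd1a (listed as Hig1). Ankrd37 had no probe under that name and was not analysed here. The 39 genes had 52 probes, of which 49, for 37 genes, passed a filter on dim probes that asked for a signal well above background on at least 4 of the 8 arrays. Stc2 was well above background on 1 array and Ca12 on 2, so neither was tested. Of the 37 genes tested, 34 were well above background on all 8 arrays, the exceptions being Hk2 (4 arrays, 2 in each group), Pfkfb3 (6, 3 in each group) and Plod2 (7).

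RNA came from 8 male Sprague-Dawley rats of 277 g, all anaesthetised with urethane and all carrying an inflatable cuff around the trachea. In the occlusion group (4 rats) the cuff closed the trachea for 2 to 4 breaths and was then deflated for at least 15 breaths, over and over for 10 min, and the brain was taken at once. In the control group (4 rats) the cuff stayed deflated and the brain was taken 70 min after the surgical setup. How long the occlusion rats were under anaesthesia before removal is not given, so the part of that time in any difference cannot be told apart from that of occlusion. Each rat was labelled in Cy5 on its own array against a Cy3 pool of all 8 rats, and every value of a rat below is the log2 of its signal over the pool's on 1 probe. A difference is the mean of the occlusion rats minus the mean of the control rats, on the log2 scale.

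In normal oxygen, prolyl hydroxylases of the EGLN family mark the alpha subunits of the hypoxia-inducible factors, HIF1A and EPAS1, for destruction. When oxygen falls, that mark is not made, the alpha subunits last longer, enter the nucleus and, with ARNT, bind hypoxia response elements near genes for glucose uptake, glycolysis, blood vessel growth and mitochondrial turnover. Much of this regulation acts on the protein, so the transcript of a factor need not follow its activity. In brain, Vegfa, Slc2a1 and Pdk1 are among the best known targets.

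The 4 sequences that follow are the 250 bases before the start of Slc2a1, Pdk1, Ldha and Hif1a, shown because these are 4 of the 5 genes that differed most between the groups and because the core of the hypoxia response element can be read in them. Capitals mark every match to ACGTG or GCGTG on either strand (CACGT or CACGC as printed when the match lies on the other strand), and CACGTG holds both strands' match at once. They are credited to RefSeq on the GRCr8 assembly, where Slc2a1 lies at chr5:138002272-138002521, Pdk1 at chr3:77113264-77113513, Ldha at chr1:106507842-106508091 and Hif1a at chr6:98359648-98359897, all on the plus strand and printed 5′ to 3′.
Slc2a1: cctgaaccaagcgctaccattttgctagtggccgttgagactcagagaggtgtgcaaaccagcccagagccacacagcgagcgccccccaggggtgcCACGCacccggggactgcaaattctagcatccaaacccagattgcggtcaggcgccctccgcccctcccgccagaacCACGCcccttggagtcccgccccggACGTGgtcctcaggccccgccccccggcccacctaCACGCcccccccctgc
Pdk1: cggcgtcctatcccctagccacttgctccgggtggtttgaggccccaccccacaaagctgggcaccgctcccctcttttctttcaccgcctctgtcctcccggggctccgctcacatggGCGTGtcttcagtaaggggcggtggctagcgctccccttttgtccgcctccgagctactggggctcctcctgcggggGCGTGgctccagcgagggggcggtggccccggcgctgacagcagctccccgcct
Ldha: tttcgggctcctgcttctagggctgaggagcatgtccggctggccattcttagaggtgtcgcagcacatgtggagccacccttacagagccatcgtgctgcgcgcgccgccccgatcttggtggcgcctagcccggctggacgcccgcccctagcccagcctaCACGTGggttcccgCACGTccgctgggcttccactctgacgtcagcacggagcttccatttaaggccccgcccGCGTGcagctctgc
Hif1a: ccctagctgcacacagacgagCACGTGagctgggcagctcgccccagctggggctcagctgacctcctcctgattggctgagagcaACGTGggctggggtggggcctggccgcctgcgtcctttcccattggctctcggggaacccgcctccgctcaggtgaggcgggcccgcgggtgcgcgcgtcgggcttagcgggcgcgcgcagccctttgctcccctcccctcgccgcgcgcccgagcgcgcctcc

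Slc2a1 held 4 matches in these 250 bases, Pdk1 held 2, Ldha held 4 and Hif1a held 3, counting both strands of CACGTG. Over the 300 bases from 250 before to 50 after the start, 26 of the 34 genes of the set with an entry (76.5%) held ACGTG or GCGTG on either strand, against 44.6% of 27457 rat genes with an entry. A match is a string of letters and says nothing of whether a factor bound there. Genes with a match had a median difference of 0.017 between occlusion and control (24 genes tested) and those without had 0.025 (7 genes tested). Only these 300 bases were read, so a gene without a match here, such as Vegfa or Adm, may hold one elsewhere.

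No hypoxia gene changed past the adjusted threshold. In limma with Benjamini-Hochberg adjustment over 31690 probes, 0 probes had an adjusted p under 0.05 (0.0% of those tested), and the smallest adjusted p of the hypoxia genes was 0.977. Before adjustment, 2 of the 37 genes (5.41%) had p under 0.05 in limma: Slc2a1, the glucose transporter of the blood-brain barrier, was higher after occlusion, and Pdk1, the kinase that keeps pyruvate out of the mitochondrion, was lower. Over all probes tested, 969 (3.06%) passed that unadjusted threshold, 574 of them higher (1.81%) and 395 lower (1.25%), so a count of 2 lies near the background. The split over all probes moved with scaling, to 255 higher and 70 lower after median centring and, on ratios taken from the scanner software, to 422 higher and 712 lower. The occlusion and control values did not overlap for Pdk1 (lower) and Hk2 (higher), 2 of 37 genes (5.41%) against 2.5% of all probes. Across the set 20 genes were higher and 17 lower in the occlusion group, a split that turned to 17 and 20 with the software's own ratios and to 15 higher and 22 lower in Cy5 alone. The median difference was 0.012 over the set and 0.0019 over all probes. In bulk tissue, fewer cells of a type and less RNA per cell cannot be told apart.

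The intervals bound the difference of each gene taken alone, with no adjustment for the number of probes. They do not give the size that would have passed the adjusted threshold. The median standard error of a difference was 0.11 over the hypoxia genes and 0.097 over all probes, and the median absolute difference was 0.11 and 0.073. The 95% intervals of all 37 genes lay within a 2-fold change in either direction, the bound farthest from 0 being 0.70 for Hif1a. For 32 genes they lay within 1.5-fold, and for 5 they reached past it: Ldha, Adm, Higd1a, Ero1l and Hif1a. These limits are on the measured ratio scale, on which an added offset of 50 draws the ratios of dim probes towards 0.

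**Figure D1:**
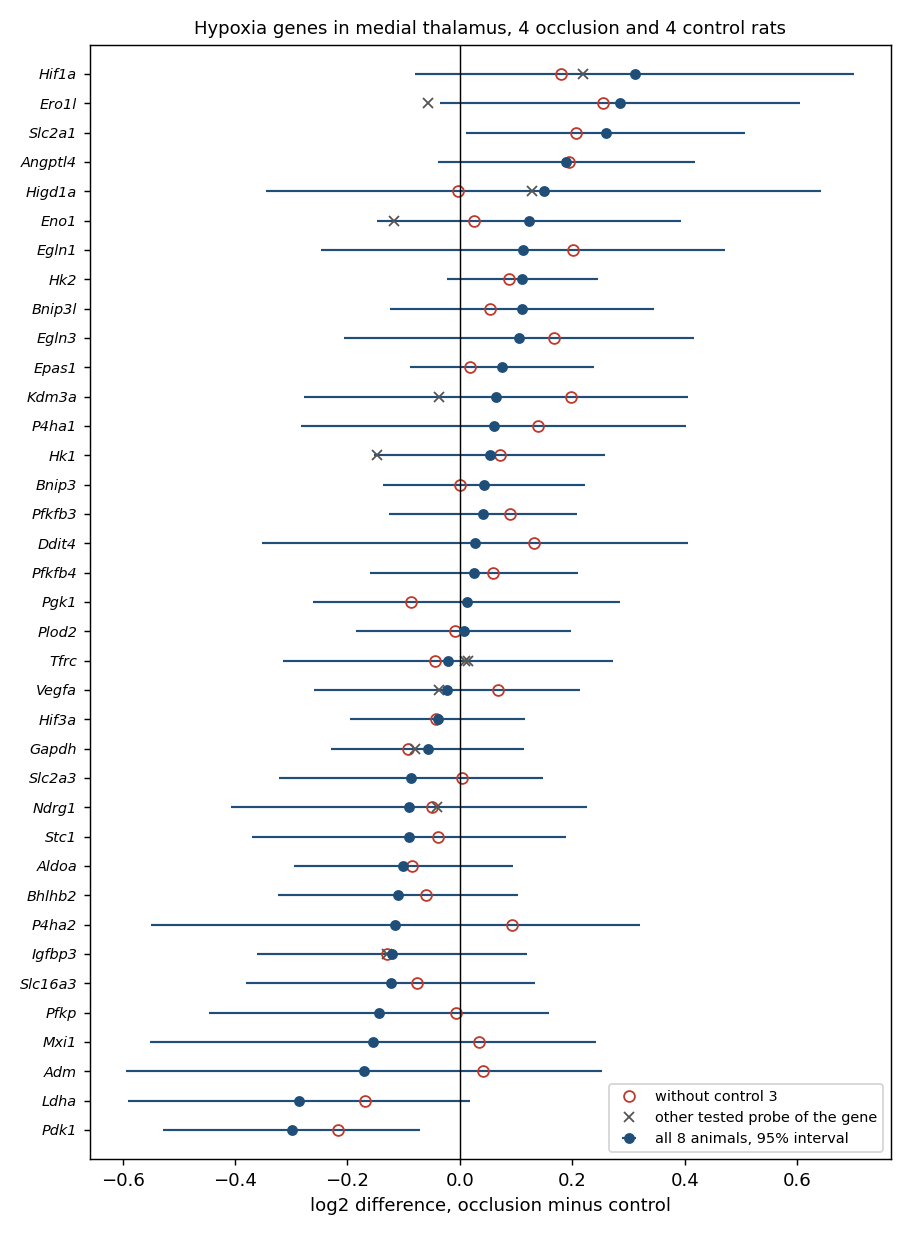
Log2 difference (occlusion minus control) of each of the 37 tested hypoxia genes, with its 95% interval in limma as a line, the value without control 3 as an open circle and other tested probes of the same gene as crosses. Only the intervals of Pdk1 (lower) and Slc2a1 (higher) leave out 0, and the smallest adjusted p in limma was 0.977.

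Control 3 stood apart on several lists of tissue markers, and occlusion 1 and occlusion 3 each on some. Over 4 tested markers of thalamic relay neurons, the mean log2 ratio of control 3 was -2.06, against -0.32 to 0.24 in the other 7 rats. Over 4 tested markers of cortical neurons it was 2.11, against -1.72 to -0.65. Its meningeal and fibroblast markers (6 tested) stood at 0.91, against -0.65 to 0.094, and its choroid plexus markers (4 tested) at -2.0, against -0.87 to 0.86. Occlusion 3 was the highest on the choroid plexus list, at 0.86, where the other 7 rats were at -0.33 or lower. Single markers weighed heavily on that list. In control 3 Otx2 was at -3.90, against -0.70 to 0.80 in the others. Its Ttr (-2.79) lay near that of control 4 (-2.60), and its Enpp2 was not the lowest. In occlusion 3 Ttr was at 2.28, against -2.79 to -1.76, and its Enpp2 was the highest but its Otx2 was not. Folr1 was lowest in control 3 and highest in occlusion 3. Occlusion 1 was the lowest on 2 red cell markers, at -1.08 against -0.14 to 0.63, and the highest on 4 oligodendrocyte markers, at 0.16 against -0.61 to -0.21. The relay markers Slc17a6, Prkcd and Gbx2 were well above background on all 8 arrays. Among 35 hypoxia genes measured in all 8 rats, control 3 had the highest or the lowest value for 22 (62.9%), with 14 highest and 8 lowest, and over all probes that share was 48.8%. Without control 3 the median difference of the set was 0.026, with 21 genes higher and 16 lower, 9 genes changed sign, and 1 gene, Pdk1, had an unadjusted p under 0.05. The part of the tissue markers in each gene's result was not tested. Astrocyte markers (7 tested) ranged from -0.063 to 0.081 in the occlusion rats and from -0.20 to 0.052 in the control rats, and 5 endothelial markers outside the set from -0.17 to 0.015 and from -0.11 to -0.023.

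**Figure D2:**
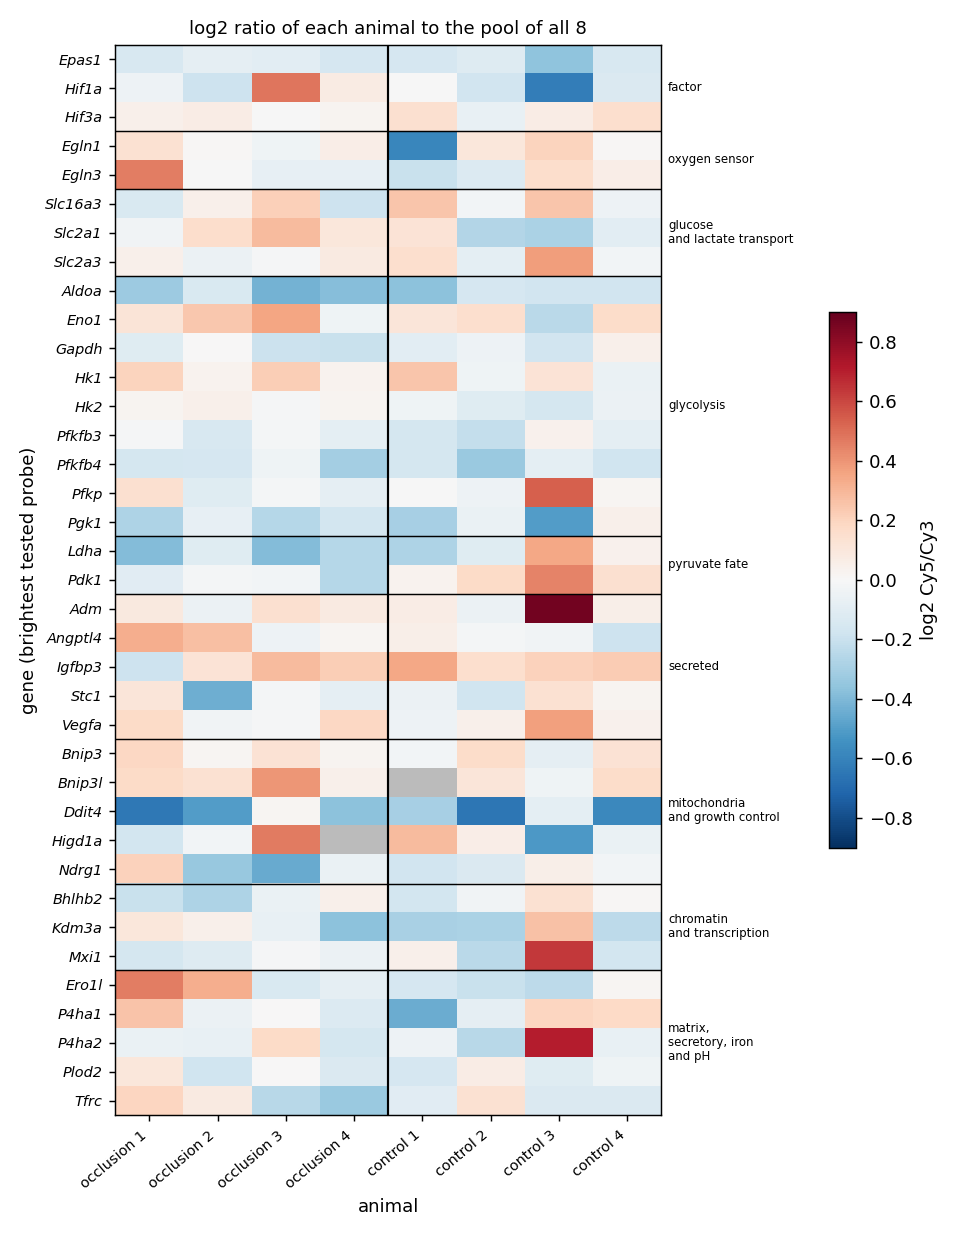
Log2 ratio of each rat (columns) to the pool of all 8 for the 37 tested hypoxia genes (rows, grouped by role), red for a ratio above 0 and blue below, with a line between the groups. The column of control 3 holds the highest or lowest value of 22 of the 35 genes measured in all rats, and grey marks 2 values left out as outlier spots.

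The factors themselves came first in size on 1 gene. Hif1a, the oxygen-regulated subunit of HIF-1, stood at -0.048, -0.19, 0.48 and 0.074 in occlusion rats 1 to 4 and at -0.00038, -0.17, -0.62 and -0.13 in control rats 1 to 4. Occlusion 3 was the highest of the 8 and control 3 the lowest, and the other 6 rats overlapped. The difference was 0.31 ± 0.17 (SE, 4 rats per group), the largest of the set, with an exact permutation p of 0.2 and an adjusted p of 0.977 in limma. A second Hif1a probe, averaged over 10 spots, gave 0.22, and the brighter probe gave 0.18 without control 3 and 0.18 without occlusion 3. The probe lies in rn3, the build named in the file headers, at chr6:96467271-96467330.

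Epas1, which encodes HIF-2 alpha and is best known from endothelium, stood at -0.15, -0.081, -0.097 and -0.15 in the occlusion rats and at -0.15, -0.12, -0.36 and -0.14 in the control rats. All rats but control 3 lay close together, and the difference was 0.075 ± 0.072 (SE), falling to 0.018 without control 3 and turning to -0.0020 on the scanner software's ratios and to -0.034 in Cy5 alone. Hif3a, whose short products can restrain the other factors, stood at 0.046, 0.068, -0.0027 and 0.026 in the occlusion rats and at 0.14, -0.067, 0.066 and 0.15 in the control rats, for a difference of -0.040 ± 0.069 (0.055 in Cy5 alone). The occlusion values lay inside the range of the control values.

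The oxygen sensors among the targets, Egln1 and Egln3, are both prolyl hydroxylases, and both are themselves induced by the factors they restrain. Egln1 stood at 0.14, 0.0079, -0.038 and 0.063 after occlusion and at -0.59, 0.100, 0.20 and 0.011 in the controls. Here control 1 alone was low, and the 7 other rats overlapped. The difference of 0.11 ± 0.16 (SE) turned to -0.060 without control 1 and to -0.13 in Cy5 alone. Egln3 stood at 0.46, -0.0054, -0.072 and -0.075 after occlusion and at -0.20, -0.13, 0.16 and 0.059 in the controls. Only occlusion 1 was high, and the difference of 0.11 ± 0.14 became -0.023 without that rat.

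Among the transporters, Slc2a1 (GLUT1) was higher after occlusion and the others lower, none past the adjusted threshold. Slc2a1 stood at -0.034, 0.16, 0.29 and 0.11 after occlusion and at 0.13, -0.26, -0.29 and -0.095 in the controls. All 4 occlusion rats lay above controls 2, 3 and 4, and control 1 lay among them. The difference was 0.26 ± 0.11 (SE), or 1.2-fold, with an unadjusted p of 0.0422 in limma, an adjusted p of 0.977 and an exact permutation p of 0.0857. It was as large on each slide alone, 0.25 on slide 1 and 0.27 on slide 2, and 0.21 without control 3, where the unadjusted p in limma was 0.0935. That p stayed under 0.05 without occlusion 1 or control 1 and not without any of the other 6 rats. Among all 21 alternative fits it was under 0.05 in 10. The probe lies at chr5:139724005-139724064 in rn3.

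Slc2a3, the neuronal glucose transporter GLUT3, stood at 0.043, -0.051, -0.012 and 0.084 after occlusion and at 0.15, -0.087, 0.37 and -0.024 in the controls. Control 3 was the highest, and the difference of -0.087 ± 0.10 (SE) became 0.0034 without it. Slc16a3, the lactate exporter MCT4, differed by -0.12, and its occlusion and control values overlapped.

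The glycolytic enzymes, 9 genes in all, showed 6 higher and 3 lower, with differences from -0.14 (Pfkp) to 0.12 (Eno1) and 0 with an unadjusted p under 0.05. Hk2, the inducible hexokinase, stood at 0.025, 0.048, -0.012 and 0.025 after occlusion and at -0.036, -0.11, -0.16 and -0.050 in the controls. Every occlusion value lay above every control value, so the exact permutation p was 0.0286, the smallest that 70 assignments can give. The difference was 0.11 ± 0.059 (SE), or 1.08-fold, with an adjusted p of 0.977 in limma. Its size moved with the processing, from 0.061 in Cy5 alone to 0.35 on the scanner software's ratios. With a smaller added offset of 16 it was 0.19, with an unadjusted p of 0.0427 and an adjusted p of 0.981 in limma. Of the 20 other fits that gave Hk2 a value, that was the only 1 with an unadjusted p under 0.05. Control 3 was the lowest of all rats, and without it the difference was 0.087. The probe was dim, with a Cy5 signal of 1.59 to 1.93 times the local background, and the groups overlapped with no background correction, after median centring, on the scanner software's ratios and in Cy5 alone.

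Hk1, the constitutive brain hexokinase, stood at 0.20, 0.033, 0.22 and 0.029 after occlusion and at 0.25, -0.042, 0.12 and -0.058 in the controls, a difference of 0.053 ± 0.091 (SE). Its second probe gave -0.15, the opposite sign. Eno1, enolase 1, stood at 0.12, 0.25, 0.35 and -0.042 after occlusion and at 0.11, 0.15, -0.24 and 0.17 in the controls. Control 3 was the lowest, the difference was 0.12 ± 0.12 and fell to 0.026 without that rat, and a second probe gave -0.12. For both enzymes the groups overlapped and the probes did not settle a direction.

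Pgk1, which makes ATP in the lower part of glycolysis, stood at -0.28, -0.075, -0.26 and -0.17 after occlusion and at -0.30, -0.061, -0.50 and 0.044 in the controls. The difference of 0.012 ± 0.12 (SE) was -0.087 without control 3 and -0.026 in Cy5 alone. The other enzymes were Aldoa (-0.10), Gapdh (-0.057, and -0.080 on its second probe), Pfkfb4 (0.025) and Pfkfb3 (0.041). Pfkp, the platelet type phosphofructokinase, reached 0.54 in control 3, while the 7 other rats ranged from -0.11 to 0.14. Its difference was -0.14 in all rats and -0.00685 without control 3.

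The enzymes that decide the fate of pyruvate were the lowest of the set, though neither passed the adjusted threshold. Pdk1 phosphorylates and inactivates pyruvate dehydrogenase, and stood at -0.100, -0.018, -0.024 and -0.26 after occlusion and at 0.033, 0.17, 0.45 and 0.15 in the controls. All 4 occlusion rats were below all 4 controls, though the groups overlapped after median centring and in Cy5 alone. Control 3 was the highest of all rats. The difference was -0.30 ± 0.10 (SE), or 0.813-fold, with an unadjusted p of 0.016 in limma, an adjusted p of 0.977 and an exact permutation p of 0.0286. It was -0.35 on slide 1, -0.24 on slide 2 and -0.22 without control 3. It had an unadjusted p under 0.05 in 18 of the 21 other fits, the exceptions being median centring and each slide alone. Those fits reuse the same rats, and several returned the same difference, so they are not independent of each other. The probe lies at chr3:54199346-54199646 in rn3.

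Ldha, the lactate dehydrogenase subunit that turns pyruvate to lactate, stood at -0.39, -0.11, -0.39 and -0.26 after occlusion and at -0.28, -0.11, 0.35 and 0.038 in the controls. Control 3 was the highest and control 1 lay among the occlusion rats. The difference was -0.29 ± 0.13 (SE), with an exact permutation p of 0.143 and an adjusted p of 0.977 in limma, and -0.17 without control 3. Its unadjusted p in limma fell under 0.05 in 4 of the 21 other fits, those without occlusion 2, without control 1, with slide as a block and with array weights. The probe lies at chr1:97485785-97485844 in rn3.

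**Figure D3:**
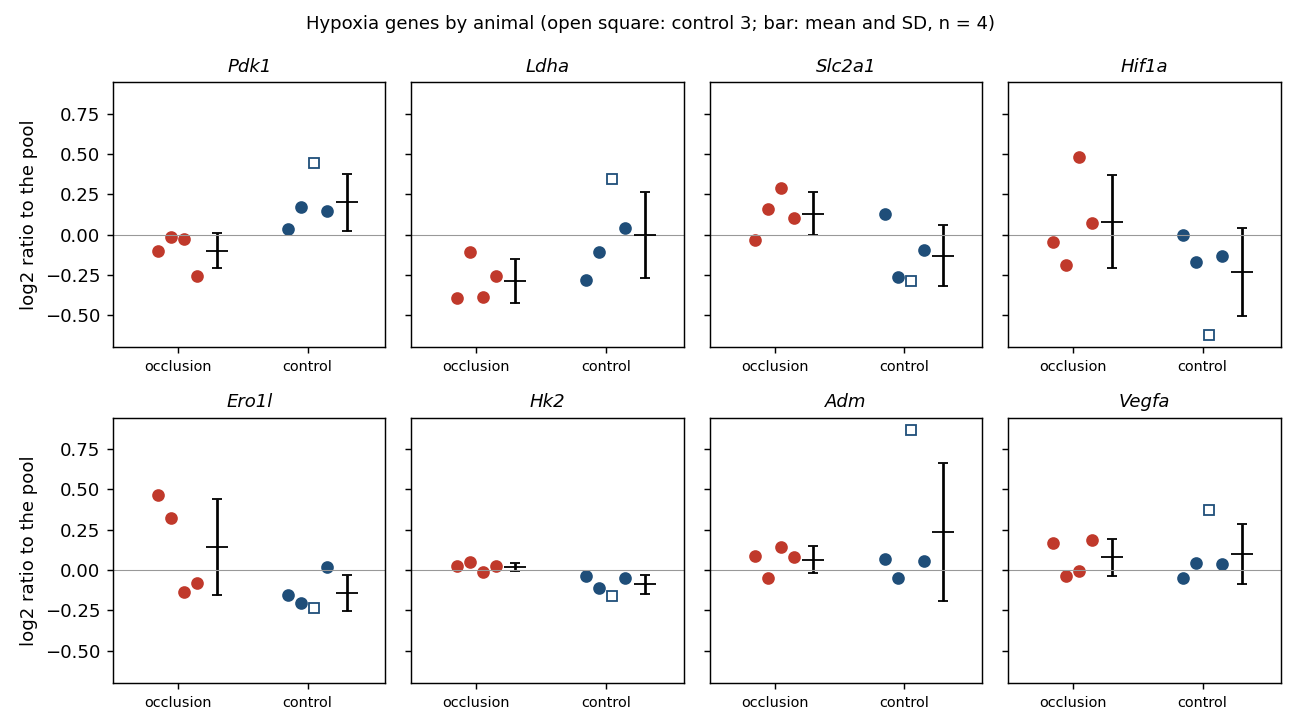
Log2 ratio to the pool in each occlusion rat (red) and each control rat (blue, with control 3 as an open square) for 8 hypoxia genes, with the mean and SD of 4 rats as a black bar. The groups are apart for Pdk1 and Hk2 alone. For Pdk1, Hk2, Adm, Ldha, Vegfa and Hif1a control 3 is the control rat farthest from the others of its group.

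Of the secreted products, 5 tested genes, 1 was higher (Angptl4) and 4 lower, none at an unadjusted p under 0.05. Vegfa, the main angiogenic factor among the targets, stood at 0.17, -0.034, -0.0090 and 0.18 after occlusion and at -0.049, 0.043, 0.37 and 0.035 in the controls. The groups overlapped throughout, and the difference was -0.022 ± 0.10 (SE) on this probe, -0.037 on a second probe and 0.068 without control 3. Its 95% interval ran from -0.26 to 0.21.

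Adm, which encodes the vessel-widening peptide adrenomedullin, stood at 0.087, -0.051, 0.14 and 0.081 after occlusion and at 0.067, -0.051, 0.87 and 0.055 in the controls. Control 3 was far above the other 7 rats, and the difference of -0.17 ± 0.19 (SE) became 0.041 without it. Angptl4, a regulator of lipoprotein lipase, differed by 0.19 ± 0.10. It was at 0.33 and 0.27 in occlusion rats 1 and 2, on slide 1, and at -0.043 and 0.019 in occlusion rats 3 and 4, on slide 2. Stc1, stanniocalcin, differed by -0.091, and Igfbp3, which binds insulin-like growth factors, by -0.12, or -0.13 on its second probe.

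The genes for mitochondrial turnover and growth control, 5 in all, were higher in 4 and lower in 1, with 0 at an unadjusted p under 0.05. Bnip3, a receptor for mitophagy, stood at 0.18, 0.021, 0.13 and 0.027 after occlusion and at -0.025, 0.16, -0.082 and 0.13 in the controls. The difference was 0.043 ± 0.079 (SE), with -0.012 in Cy5 alone and -0.00036 without control 3. Its relative Bnip3l differed by 0.11 over 4 occlusion and 3 control rats, since the spot of control 1 was an outlier.

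Ddit4 (REDD1), an inhibitor of mTOR complex 1, stood at -0.65, -0.51, 0.015 and -0.37 after occlusion and at -0.30, -0.65, -0.089 and -0.58 in the controls. Occlusion 3 and control 3 were the highest of their groups, and the spread within a group was wide beside the difference of 0.027 ± 0.17 (SE). The difference was -0.24 on slide 1 and 0.30 on slide 2. Higd1a, a protein of the inner mitochondrial membrane, differed by 0.15 ± 0.21 over 3 occlusion and 4 control rats, with an outlier spot in occlusion 4, and by -0.0041 without control 3. Ndrg1 differed by -0.090, or -0.041 on its second probe.

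The chromatin and transcription genes were Kdm3a, Mxi1 and Bhlhb2 (Bhlhe40). Kdm3a, a histone H3 lysine demethylase, stood at 0.099, 0.047, -0.064 and -0.37 after occlusion and at -0.29, -0.29, 0.27 and -0.23 in the controls. Of the controls, 3 were low and control 3 high, and the difference was 0.064 ± 0.15 (SE), 0.20 without control 3 and -0.038 on a second probe. Mxi1, which antagonises MYC, was at 0.64 in control 3 and from -0.24 to 0.049 in the other rats, and its difference moved from -0.15 to 0.035 without that rat. Bhlhb2, a repressor of the clock, differed by -0.11.

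Among the genes for matrix, secretion, iron and pH, 5 were tested, 3 higher and 2 lower. Ero1l (Ero1a), the oxidase that forms disulphide bonds in the endoplasmic reticulum, stood at 0.46, 0.32, -0.14 and -0.082 after occlusion and at -0.15, -0.20, -0.24 and 0.017 in the controls. Occlusion rats 1 and 2, on slide 1, were the highest, and occlusion rats 3 and 4, on slide 2, lay among the controls. The difference was 0.29 ± 0.14 (SE), with 0.50 on slide 1, 0.067 on slide 2, an exact permutation p of 0.171 and an adjusted p of 0.977 in limma. A second Ero1l probe gave -0.056.

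Tfrc, the transferrin receptor, stood at 0.19, 0.081, -0.25 and -0.33 after occlusion and at -0.10, 0.14, -0.13 and -0.13 in the controls. The difference of -0.021 ± 0.13 (SE) was 0.27 on slide 1, -0.31 on slide 2 and 0.033 after median centring, and the 2 other probes of the gene gave 0.0092 and 0.015. The prolyl 4-hydroxylases of collagen gave 0.060 (P4ha1) and -0.11 (P4ha2), and control 3 was at 0.71 for P4ha2. Plod2, a collagen lysyl hydroxylase, differed by 0.0072.

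The differences were also read within each slide. Each slide held 2 occlusion and 2 control rats, and control 3 was on slide 1. Of the 37 genes, 19 had the same sign of difference on both slides and 18 opposite signs, with a median of -0.032 on slide 1 and 0.065 on slide 2. With slide as a block in limma, 4 of the 37 genes had an unadjusted p under 0.05, against 2 without the block. They were Pdk1, Ldha, Slc2a1 and Ero1l, and the adjusted p of all 4 was 0.958. Over all probes, 1027 (3.24%) passed the unadjusted threshold with the block and 969 (3.06%) without it.

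**Figure D4:**
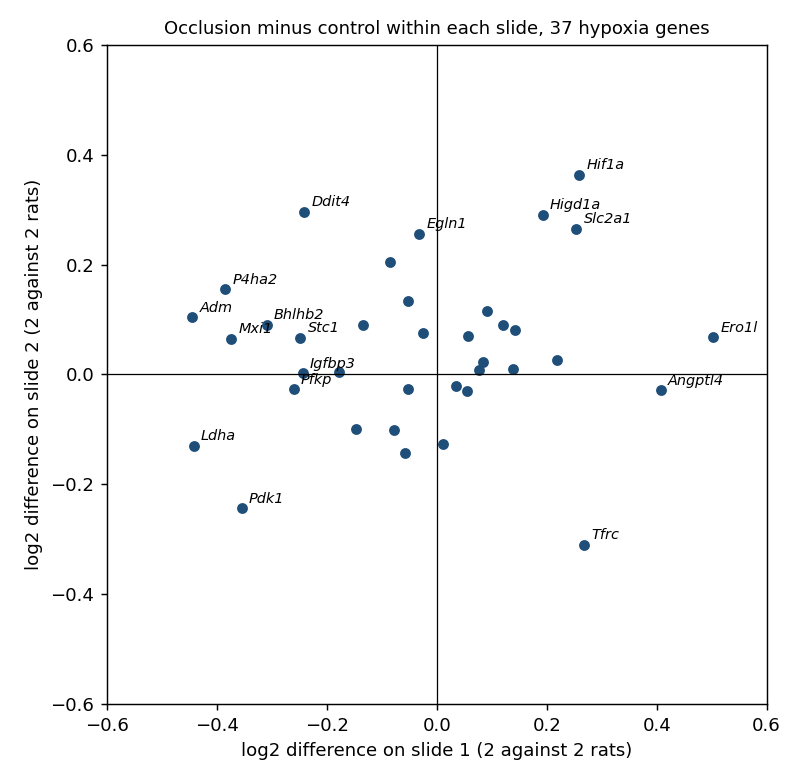
Log2 difference (occlusion minus control, 2 against 2 rats) of the 37 tested hypoxia genes on slide 1 (horizontal) against slide 2 (vertical). Pdk1 and Ldha are lower on both slides, Slc2a1 and Hif1a are higher on both, and 18 genes have opposite signs on the slides.

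Where a gene had more than 1 tested probe, the probes served as a check on the array. Of 11 such genes, 6 had probes of the same sign (Gapdh, Hif1a, Higd1a, Igfbp3, Ndrg1 and Vegfa) and 5 had probes of opposite sign (Hk1, Eno1, Ero1l, Kdm3a and Tfrc). Pdk1, Slc2a1, Ldha and Hk2 each had 1 tested probe, so their values have no such check.

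Another 50 genes of the pathway that are not in the set were read in the same fit, of which 45 were tested, 3 had no probe by name and 2 (Epo and Nos2) were dim. None passed the adjusted threshold, 31 were higher and 14 lower, and 0 higher and 2 lower had an unadjusted p under 0.05, which is 4.44% against 3.06% of all probes. Egln2, the third prolyl hydroxylase, differed by -0.16 ± 0.068 (SE), and Cox4i2, a lung-enriched and hypoxia-inducible subunit of cytochrome oxidase, by -0.14 ± 0.060. For both genes the 4 occlusion rats lay below the 4 controls, with an exact permutation p of 0.0286 and an adjusted p of 0.977 in limma. Tceb1 (elongin C), a part of the VHL ligase, followed at -0.12. The 3 higher genes with the smallest p were Cul2 (0.23), the cullin of that ligase, Bhlhb3 (0.15) and Hif1an (0.12), the asparaginyl hydroxylase that blocks HIF coactivators.

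By role, the dimer partners and coactivators (5 tested) had a median difference of 0.039, and oxygen sensing and degradation (8 tested) -0.021. Other glycolytic genes (10 tested) had -0.033, and oxygen supply, iron and pH (4 tested) 0.021. The other targets (7 tested) had a median of 0.030, with 6 higher and 1 lower. The genes of vessels and vascular tone had a median of 0.11, with 11 of 11 tested genes higher and 0 at an unadjusted p under 0.05. In Cy5 alone 10 of those 11 were higher, and without control 3 the count was 8. On slide 1 alone 7 were higher and 4 lower, and on slide 2 alone 9 were higher and 2 lower. The median over the 45 genes was 0.063, and 0.026 without control 3.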

How the data were processed

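Medial thalamus RNA of 8 rats (4 per group) was read on 2-colour Agilent arrays, Cy5 for the animal and Cy3 for a pool of all 8, with no dye swap. The authors extracted the scans with Agilent Feature Extraction 9.5.1.1, per the file headers. The deposited files hold linear spot intensity and the software's log10 ratio, which served as an alternative, with probe positions on rn3, per the file headers. Intensities were corrected by normexp (offset 50) and loess, with control and outlier spots at weight 0, and each probe's spots were averaged. The fit took probes that exceeded background clearly on at least 4 arrays and had at least 2 values per group, in limma 3.58.1 (R 4.3.3), two-sided, with Benjamini-Hochberg adjustment over 31690 of 41012 probes at a threshold of 0.05. The fit was tested on simulated data. A gene is represented by its brightest tested probe, and exact permutation tests, two-sided, ran over 70 assignments.

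Median Cy5 signal over background was 3.65 to 4.67 per array, with 68.3% to 80.2% of spots well above it. The lowest share was in control 1, which also had 853 outlier spots, against 136 to 423 on the other arrays. With 4 rats per group the precision is limited. Values in every rat are given for the factors and sensors, genes with an unadjusted p under 0.05 or separate groups, the 3 largest and 3 smallest differences, probes of opposite sign, and Vegfa, Slc2a1, Slc2a3, Pdk1, Ldha, Pgk1, Bnip3, Ddit4 and Adm. The genes, lists and this rule were chosen with earlier results of these data known. Alternatives covered background, normalisation, filter, probes, blocks, slides, weights and each rat left out. Figures used matplotlib 3.10.9.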

Additional observations from a re-analysis of the deposited data

Results flagged for a closer look

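A rat far from the 3 others of its group was looked for in 72 groups of 4, and 8 were found. Chance gives about 1 in 20, or 3.6, for independent groups, which genes read in the same rats are not. The share over all probes was not taken for this check, so no excess is read from the count. Control 3 accounted for 5 of the 8, and it held the highest or lowest value of the 8 rats for 48.8% of all probes. Adm was at 0.869 in control 3 and at most 0.067 in the other controls. Pfkp was at 0.538, Kdm3a at 0.266, Epas1 at -0.364 and Eno1 at -0.244 in the same rat. Aldoa was at -0.372 in control 1, Tfrc at 0.139 in control 2 and Egln3 at 0.462 in occlusion 1. All are log2 ratios to the pool, and no cause was tested.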

How the results depend on the processing

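No probe passed the adjusted threshold in 20 of 21 alternatives, and 1 did without control 3. Replicate numbers were not taken to pair rats, since the deviations of same-numbered rats correlated at -0.13, 0.13, 0.021 and 0.081. With the replicate block 932 probes had an unadjusted p under 0.05, against 969 without it. The 2 hypoxia genes with an unadjusted p under 0.05 became 1 after median centring, on the scanner software's ratios, on slide 2 alone and with the replicate block, and 4 with slide as a block. Leaving out each rat gave 1 to 3, with 1 without control 2, control 3 or control 4. The share of all probes under that p moved too. It was 1.03% after median centring, 3.58% on the software's ratios, 2.67% on slide 2 alone and 3.24% with slide as a block. With each rat left out it ran from 1.78% (without occlusion 1) to 5.33% (without control 1). The 2 genes whose groups did not overlap became 1 with no background correction and on the scanner software's ratios. The count was also 1 among probes above background on all 8 arrays, and 0 after median centring and in Cy5 alone. It was 9 on slide 1 alone and 11 on slide 2 alone (2 against 2 rats), and 2 to 3 with each rat left out. With 2 against 2 rats, groups come apart by chance far more often than with 4 against 4. The share over all probes was not taken in these alternatives, so no rise is read from the counts. The median difference was 0.065 on slide 2 alone and -0.024 to 0.034 with each rat left out. Of 20 genes given in every rat, 9 kept their sign in each alternative that gave them a value. That was all 21 for 8 of them and 20 for Hk2, too dim for the filter on all 8 arrays. These fits took the brightest tested probe, and among the 9 genes Hk1, Eno1, Ero1l and Kdm3a had another tested probe of opposite sign. The other 11 turned in sign at least once, and none of their differences passed the adjusted threshold. Of these genes only Tfrc had an unadjusted p under 0.05 in any alternative, at -0.31 on slide 2 alone (p of 0.0465 in limma). Tfrc was 0.033 after median centring and 0.27 on slide 1 alone, and Epas1 was -0.0020 on the scanner software's ratios. In Cy5 alone Epas1 was -0.034, Hif3a 0.055, Egln1 -0.13, Pgk1 -0.026 and Bnip3 -0.012. On slide 1 alone Egln1 was -0.032 and Ddit4 -0.24. On slide 2 alone Vegfa was 0.091, Slc2a3 0.0048, Pgk1 -0.030 and Adm 0.10. With array weights Vegfa was 0.014, Slc2a3 0.0018, Pgk1 -0.11 and Bnip3 -0.020. With each rat left out in turn, the lowest and highest differences were -0.060 and 0.20 for Egln1, -0.023 and 0.17 for Egln3, -0.072 and 0.068 for Vegfa, -0.15 and 0.0034 for Slc2a3, -0.087 and 0.095 for Pgk1, -0.00036 and 0.081 for Bnip3, -0.10 and 0.13 for Ddit4, -0.27 and 0.041 for Adm, and -0.11 and 0.064 for Tfrc. Counting the members found by gene name alone, an alternative added after the data were seen, moved none of the set's counts by over 1.5 times. The cause was not tested for any of these shifts. Dim probes such as Hk2 and Pfkfb3 carry ratios drawn towards 0, so small changes there would not have been detectable.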

Other observations

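Within the vessel genes, Edn1, Kdr and Cxcr4 were singled out after their values were seen. Edn1 encodes the constricting peptide endothelin 1, Kdr the main receptor for VEGF-A, and Cxcr4 the receptor for the chemokine CXCL12. With all rats their differences were 0.11, 0.17 and 0.11. In control 3 they stood at 0.78, 0.46 and 0.29, the highest of the 8 rats in each case. Without that rat the differences were 0.40 for Edn1, 0.34 for Kdr and 0.23 for Cxcr4, with an adjusted p of 0.932 for each in limma. Lox, Pgf and Angpt2 moved the other way, to -0.11, -0.0057 and -0.014. Angpt2, the destabilising ligand of the TEK receptor, stood at -1.13 in control 3, below the range of -0.15 to 0.38 of the remaining 7 rats.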
